A study of Homo sapiens with 60 samples.

Results

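The comparison described here set HT29 cells given a water extract of Coptidis Rhizoma at its medium dose, 58 µg/mL, against HT29 cells given a water extract of Zizyphi Fructus at its medium dose, 100 µg/mL. HT29 is an established human colorectal adenocarcinoma line. The 6 libraries, 3 for each extract, were picked by the extract and dose in their labels out of the 60 libraries of the series. Zizyphi Fructus was taken for comparison as a nearly inactive extract of the same library set, a choice that drew on earlier results of these data. RNA was taken after 24 h. The comparison asks how a dose of Coptidis Rhizoma below its most concentrated one differed from an extract whose libraries carry the same set code.

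Coptidis Rhizoma is the rhizome of Coptis plants, known for isoquinoline alkaloids such as berberine, and Zizyphi Fructus is the jujube fruit. Cells meet foreign compounds and metabolic strain with a few well described transcription programmes. The aryl hydrocarbon receptor (AhR) binds planar aromatic ligands and switches on cytochrome P450 genes of the CYP1 family. NRF2 switches on antioxidant and detoxifying enzymes, and ATF4 switches on amino acid synthesis and transport when translation is slowed by the integrated stress response. Mitochondria carry their own small genome, transcribed from both strands into long precursors that are cut into ribosomal RNAs, transfer RNAs and the messenger RNAs of respiratory chain subunits.

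The groups used were Coptidis Rhizoma at 11.6, 58 and 290 µg/mL, Zizyphi Fructus at 20, 100 and 500 µg/mL, called low, medium and high below, and vehicle. Per the series text the top dose of an extract was 500 µg/mL, or the concentration that inhibited the cells by 20% where that was lower. The medium doses therefore differ in mass per volume, and a difference between the groups is one between these extracts at these doses. Library codes put both extracts in the same set (set 4) and vehicle in another (set A1), while the titles put all 60 libraries in batch A. A set here is the first part of the library code, and the labels do not say what it stands for. Vehicle was DMSO, at 0.1% by its sample labels but 2% by the series text, and no DMSO content is given for the extracts. The labels do not say that the 3 libraries of a group were 3 cultures, so p-values measure only how far libraries scatter, which may be technical scatter.

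The Coptidis Rhizoma medium libraries held 27.8, 24.6 and 17.4 M expected counts, and the Zizyphi Fructus medium libraries 27.5, 13.2 and 22.8 M. Values below are CPM, the counts of a gene scaled to a fixed library total, and log2 changes of Coptidis Rhizoma over Zizyphi Fructus with an approximate standard error (SE). A gene is called where edgeR's quasi-likelihood test gave a Benjamini-Hochberg adjusted p under 0.05 over all 16608 genes tested. All 14 epithelial markers chosen for HT29 were measured, with sums of 11747 to 12742 CPM in Coptidis Rhizoma and 11109 to 11995 CPM in Zizyphi Fructus. Of 8 fibroblast markers 2 passed the filter on low counts, summing to 2.66 to 2.75 CPM in Coptidis Rhizoma and 1.81 to 2.20 CPM in Zizyphi Fructus, and COL1A2 and THY1 had no count in any of the 6 libraries. Of 6 endothelial markers 2 passed, summing to 2.41 to 3.07 CPM in Coptidis Rhizoma and 2.05 to 2.66 CPM in Zizyphi Fructus, and CDH5 and KDR had no count. Of 8 immune markers 4 passed, summing to 1688 to 1739 CPM in Coptidis Rhizoma and 1696 to 1807 CPM in Zizyphi Fructus. CD3E had no count, while PTPRC, the pan-leukocyte antigen CD45, had 1 count in 1 Zizyphi Fructus library. CD14 had 55 to 101 counts in Coptidis Rhizoma libraries and 31 to 81 in Zizyphi Fructus libraries. ITGAM had 33 to 53 and 17 to 45. LYZ, the lysozyme gene, had 1694, 1723 and 1671 CPM in Coptidis Rhizoma and 1684, 1797 and 1712 CPM in Zizyphi Fructus. CD68, a lysosomal membrane protein gene among the immune markers, was called higher (log2 change 0.61 ± 0.16, adjusted p = 0.00875). It lost its call without Zizyphi Fructus medium replicate 2 and without Coptidis Rhizoma medium replicate 3. In whole-culture RNA, fewer cells of a kind and less RNA per cell cannot be told apart.

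Between the medium doses, 1030 of 16608 genes were called (6.2%), 603 higher (3.63%) and 427 lower (2.57%) in Coptidis Rhizoma. Most of these differences were small. The median log2 change was 0.36 among the genes called higher and -0.31 among those called lower, while 50 genes lay at or above a log2 change of 1 and 26 at or below -1. The 3 libraries of one group did not overlap the 3 of the other in 4586 of the genes tested (27.6%), and in 1023 of the 1030 called. Lack of overlap in a called gene therefore adds little to its call, and the rule for naming the largest changes required it. The count of calls moved with single libraries and with the set of libraries fitted. It was 581 without Zizyphi Fructus medium replicate 2, the shallowest of the 6, 582 without Coptidis Rhizoma medium replicate 2 and 683 without replicate 3. It was 568 in a fit of the 18 libraries of set 4, 1565 in a fit of the 6 libraries alone and 1877 without 4 libraries of other groups in which ribosomal protein genes took an unusual share.

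Zizyphi Fructus itself gave no called gene between its medium and low doses (0%), with 386 genes at an unadjusted p under 0.05, where 830 would fall by chance, and 1 gene by DESeq2. Against vehicle its medium dose also gave 0 called genes (0%), with 3509 at an unadjusted p under 0.05, 145 by DESeq2 and 1472 with no filter on low counts. That second comparison crosses library sets. The extract and the set cannot be told apart in it.

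**Figure D1:**
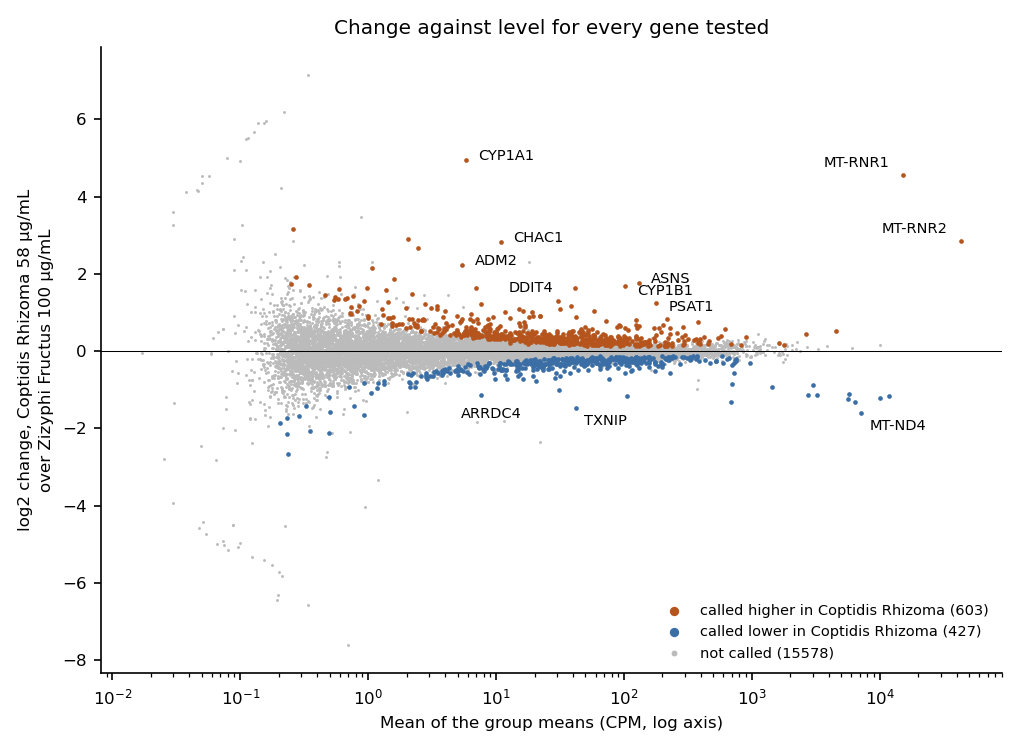
Each point is 1 of the 16608 genes tested, with the mean of the group means in CPM on a log axis (x) and the fitted log2 change of Coptidis Rhizoma 58 µg/mL over Zizyphi Fructus 100 µg/mL (y; 3 libraries a group). The 603 genes called higher and the 427 called lower lie mostly within 1 log2 unit of 0, while MT-RNR1 (4.55), MT-RNR2 (2.84) and CYP1A1 (4.96) lie far above and MT-ND4 (-1.60) and TXNIP (-1.48) below.

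Transcripts of the mitochondrial genome differed strongly, with its ribosomal RNAs higher and its messenger RNAs lower in Coptidis Rhizoma. MT-RNR1, the 12S RNA of the small mitochondrial ribosomal subunit (chrM:648-1601 on GRCh38), had 29137, 29804 and 27862 CPM in Coptidis Rhizoma and 1117, 1287 and 1299 CPM in Zizyphi Fructus. MT-RNR2, the 16S RNA of the large subunit (chrM:1671-3229), had 78548, 78292 and 70695 CPM in Coptidis Rhizoma and 10075, 10589 and 11138 CPM in Zizyphi Fructus. In both genes every Coptidis Rhizoma library was several times above every Zizyphi Fructus library. The fitted log2 changes were 4.55 ± 0.0941 (adjusted p = 1.4e-38) for MT-RNR1 and 2.84 ± 0.0806 (adjusted p = 2.21e-32) for MT-RNR2. The 2 rRNAs together took 10.3%, 10.2% and 9.52% of all counts in the Coptidis Rhizoma libraries, against 1.13%, 1.19% and 1.25% in the Zizyphi Fructus libraries. The ratio of MT-RNR1 to MT-RNR2 counts was 0.382 ± 0.0116 in Coptidis Rhizoma and 0.116 ± 0.00536 in Zizyphi Fructus (SD, n = 3 each), with no overlap between the groups. No test is given for these sums, since 3 libraries against 3 cannot go below a two-sided exact permutation p of 0.1. The library protocol names neither poly(A) selection nor removal of rRNA, so how completely these rRNAs were captured is not known from the sources used here.

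The messenger RNAs of the same genome were lower. Of its 13 protein-coding genes, 11 were called lower and 0 higher, with a median log2 change of -1.13 where 2.57% of all genes tested were called lower and the median over them lay within 0.01 of 0. MT-ND4, a subunit of complex I, had 3704, 3586 and 3404 CPM in Coptidis Rhizoma and 9994, 11631 and 10816 CPM in Zizyphi Fructus, a log2 change of -1.60 ± 0.14 (adjusted p = 3.78e-12). MT-CO1, the catalytic subunit of complex IV, had 7351, 7587 and 7199 CPM in Coptidis Rhizoma and 16558, 15868 and 16789.8 CPM in Zizyphi Fructus, a log2 change of -1.15 ± 0.0835 (adjusted p = 1.96e-15). MT-CYB, the cytochrome b of complex III, had 3386, 4019 and 3594 CPM in Coptidis Rhizoma and 7550.5, 7986 and 8107 CPM in Zizyphi Fructus, a log2 change of -1.10. In each of these genes every Coptidis Rhizoma library lay well below every Zizyphi Fructus library. The other called members ranged from -1.33 (MT-ND4L) to -0.88 (MT-ND1). The members not called were MT-ATP8 (-0.98 ± 0.33, adjusted p = 0.0713) and MT-ND6 (-0.75 ± 0.30, adjusted p = 0.146), the complex I subunit encoded on the light strand. Summed, the 13 mRNAs took 3.39% of counts in each Coptidis Rhizoma library and 7.95%, 8.37% and 8.45% in Zizyphi Fructus. Reads of MT-ATP8 and MT-ATP6, and of MT-ND4L and MT-ND4, can be shared because those pairs overlap, and nuclear copies of mitochondrial DNA can take reads of the others.

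The mitochondrial pattern did not follow dose in a single direction. At the low pair, 11.6 against 20 µg/mL, MT-RNR1 was already higher by 3.76 ± 0.0907 (adjusted p = 1.98e-35) and MT-RNR2 by 2.57 ± 0.0797 (adjusted p = 1.32e-30) in Coptidis Rhizoma. At the high pair, 290 against 500 µg/mL, the log2 change was 0.88 ± 0.0819 (adjusted p = 3.22e-13) for MT-RNR1 and 0.10 ± 0.0752 (adjusted p = 0.285) for MT-RNR2. The share of counts in both rRNAs was 7.55% ± 0.159, 10.0% ± 0.43 and 1.44% ± 0.0685 at low, medium and high Coptidis Rhizoma (SD, n = 3 each), against 1.17% ± 0.00917, 1.19% ± 0.0585 and 1.17% ± 0.0465 at low, medium and high Zizyphi Fructus and 1.19% ± 0.0382 in vehicle. The share in the 13 mRNAs was 4.47% ± 0.0612, 3.39% ± 0.00153 and 2.41% ± 0.0642 at low, medium and high Coptidis Rhizoma, against 7.78% ± 0.246, 8.26% ± 0.268 and 7.63% ± 0.486 at low, medium and high Zizyphi Fructus. The rRNA share was thus highest at the medium dose of Coptidis Rhizoma and only slightly above Zizyphi Fructus at the high dose, where MT-RNR1 was still called higher, while the mRNA share was below that of Zizyphi Fructus at each dose.

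Within the mRNAs, low and medium doses differed by gene. At the low pair 8 of the 13 were called lower (0.0783% of all genes) and 2 higher (0.163% of all genes), and at the high pair all 13 were called lower (28.2% of all genes). MT-ND5, a complex I subunit, had 6352, 5825 and 5731 CPM in Coptidis Rhizoma and 3470.0, 3459 and 3334 CPM in Zizyphi Fructus at low dose. At medium dose it had 1773, 1729 and 1648 CPM in Coptidis Rhizoma and 3719, 3992 and 3599.9 CPM in Zizyphi Fructus. MT-ND5 was thus above its Zizyphi Fructus libraries at low dose and below them at medium dose, with log2 changes of 0.80 ± 0.12 and -1.13 ± 0.12. MT-ND2 turned round in the same way (0.53 ± 0.11 at low, -1.12 ± 0.11 at medium dose, called at both). MT-ND1 (0.55 at low, -0.88 at medium) and MT-ND6 (1.14 at low, -0.75 at medium) were above 0 at low dose without passing the test there. The change from low to medium was tested as an interaction and was called for MT-ND5, MT-ND2, MT-ND1, MT-ND6, MT-CYB and MT-RNR1, and not for the other 9 mitochondrial transcripts.

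**Figure D2:**
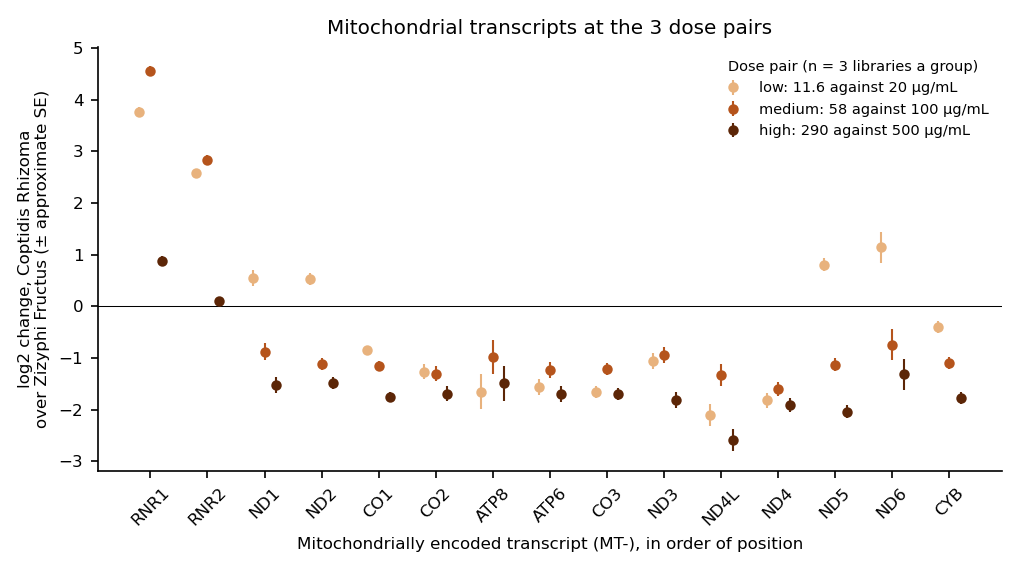
Fitted log2 change of Coptidis Rhizoma over Zizyphi Fructus (y, ± approximate SE) for the 15 rRNAs and mRNAs of the mitochondrial genome in order of position (x), at the low, medium and high dose pairs (3 libraries a group). MT-RNR1 and MT-RNR2 lie at 3.76 and 2.57 at low and 4.55 and 2.84 at medium dose. MT-ND6, MT-ND5, MT-ND1 and MT-ND2 lie above 0 at low dose only, and of these MT-ND5 and MT-ND2 were called there. All 13 mRNAs lie below 0 at medium and high dose.

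Nuclear genes for mitochondria gave almost no call at the medium doses. Of 26 nuclear subunits of the respiratory chain 0 were called, with log2 changes between -0.09 and 0.17, and of 24 mitochondrial ribosomal proteins 0 were called, between -0.10 and 0.16. By other settings at most 2 respiratory subunits and 0 mitochondrial ribosomal proteins were called. At the high pair 19 of the 26 and 15 of the 24 were called lower, where 28.2% of all genes tested were. A further 15 tested genes handle mitochondrial nucleic acid or, as NRF1 and PPARGC1B, regulate nuclear genes for mitochondria. Of these, POLG, the mitochondrial DNA polymerase, was the only one called, at -0.16 ± 0.0506 (adjusted p = 0.0447). It lost its call in 11 of 15 other settings. TFAM, which packages mitochondrial DNA, had a log2 change of -0.07 and POLRMT, the mitochondrial RNA polymerase, one of 0.04, neither called.

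Genes of amino acid synthesis and transport rose together. Of 25 ATF4 targets tested, 20 were called higher and 0 lower, against 3.63% and 2.57% of all genes, with a median log2 change of 0.75. One member, FGF21, had no count in the Zizyphi Fructus medium libraries, so no fold is given for it, and the median without it is 0.74. The promoters of 3 genes of this response are shown first, because the letters of the element bound by ATF4 with a C/EBP partner lie in them. Capitals mark each match to TGATGNAA, read on either strand, in the window from 250 bases before to 50 after a start (RefSeq, GRCh38.p14).
ASNS, chr7:97872359-97872658, minus strand: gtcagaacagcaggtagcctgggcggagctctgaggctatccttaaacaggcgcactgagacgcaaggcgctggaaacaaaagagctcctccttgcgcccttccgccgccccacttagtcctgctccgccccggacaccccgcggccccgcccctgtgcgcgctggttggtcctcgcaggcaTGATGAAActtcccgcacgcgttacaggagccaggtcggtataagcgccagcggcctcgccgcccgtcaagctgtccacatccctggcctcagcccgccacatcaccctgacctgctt
CHAC1, chr15:40953221-40953520, plus strand: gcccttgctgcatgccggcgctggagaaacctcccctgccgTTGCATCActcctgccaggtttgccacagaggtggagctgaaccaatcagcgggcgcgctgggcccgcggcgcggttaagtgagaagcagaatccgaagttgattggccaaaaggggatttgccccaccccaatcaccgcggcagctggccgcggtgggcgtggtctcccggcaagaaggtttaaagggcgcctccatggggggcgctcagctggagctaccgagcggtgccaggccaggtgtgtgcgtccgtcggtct
AARS1, chr16:70289457-70289756, minus strand: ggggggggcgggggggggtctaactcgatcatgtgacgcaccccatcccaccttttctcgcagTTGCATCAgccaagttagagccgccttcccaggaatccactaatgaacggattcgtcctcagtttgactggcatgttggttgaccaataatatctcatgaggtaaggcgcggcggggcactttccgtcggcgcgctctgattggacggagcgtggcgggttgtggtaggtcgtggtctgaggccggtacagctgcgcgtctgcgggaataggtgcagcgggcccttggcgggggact
The first letter of the match lies 68 bases before the start in ASNS, 209 before it in CHAC1 and 187 before it in AARS1, on the reverse strand in the last 2. These letters occur in 3.62% of all 35116 windows of the table and 2.08% of the 16118 windows of genes tested. They occur in 6.06% of the 710 windows of genes called higher and 2.67% of the 524 windows of genes called lower. A gene can have several windows, one for each start listed. Among ATF4 targets with a window, 6 of 21 genes held a match, 4 of the 17 called higher and 2 of the 4 not called (FGF21 and SLC7A1). Among tRNA synthetases 7 of 16 did. Such matches describe letters, not binding.

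ASNS, asparagine synthetase, had 199, 201 and 204 CPM in Coptidis Rhizoma and 55.2, 62.2 and 59.7 CPM in Zizyphi Fructus. All Coptidis Rhizoma libraries were more than 3 times as high as any Zizyphi Fructus library, and the log2 change was 1.77 ± 0.0603 (adjusted p = 6.81e-29). CHAC1, which breaks down glutathione, had 20.8, 20.3 and 16.5 CPM in Coptidis Rhizoma and 3.31, 1.96 and 2.58 CPM in Zizyphi Fructus, a log2 change of 2.82 ± 0.15 (adjusted p = 2.95e-21). PSAT1 and PHGDH, enzymes of serine synthesis, differed less. PSAT1 had 245, 253 and 255 CPM in Coptidis Rhizoma and 97.2, 116 and 103 CPM in Zizyphi Fructus, a log2 change of 1.26 ± 0.0504. PHGDH had 53.8, 55.4 and 54.6 CPM in Coptidis Rhizoma and 30.9, 25.4 and 31.8 CPM in Zizyphi Fructus, a log2 change of 0.88 ± 0.0765. DDIT4, an inhibitor of the mTORC1 kinase, had 67.3, 65.98 and 55.8 CPM in Coptidis Rhizoma and 22.5, 16.8 and 20.8 CPM in Zizyphi Fructus, again with no overlap (log2 change 1.63 ± 0.0808, adjusted p = 5.94e-22). ATF4 mRNA itself, which codes for the regulator and is controlled chiefly in translation, had 344, 369 and 338 CPM in Coptidis Rhizoma and 222, 225 and 233 CPM in Zizyphi Fructus (0.63 ± 0.0605, adjusted p = 2.96e-11).

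The rise covered several branches of this programme. TRIB3, a pseudokinase that feeds back on ATF4, rose by 1.04 ± 0.0667, SESN2, a leucine-sensing inhibitor of mTORC1, by 0.87 ± 0.0924, and DDIT3, which codes for the factor CHOP, by 0.72 ± 0.13. The transcription factor ATF3 rose by 1.17 ± 0.17 and GPT2, an alanine aminotransferase, by 0.59 ± 0.0381. The mitochondrial enzymes PCK2, MTHFD2 and SHMT2, of phosphoenolpyruvate and one-carbon metabolism, rose by 1.18, 0.59 and 0.46. Transporters rose too, with SLC7A5 at 0.75 ± 0.0546 and its partner chain SLC3A2 at 0.67 ± 0.0697. Outside the list, ADM2, a secreted peptide hormone of the calcitonin family, had 8.17, 9.68 and 8.97 CPM in Coptidis Rhizoma and 2.09, 1.81 and 1.75 CPM in Zizyphi Fructus, a log2 change of 2.23 ± 0.16. JDP2, a repressor of AP-1 sites, had 11.2, 10.2 and 9.98 CPM in Coptidis Rhizoma and 3.35, 3.4 and 3.45 CPM in Zizyphi Fructus, a log2 change of 1.62 ± 0.12. Chosen after their values were seen, the glycine transporter SLC6A9 (2.66 ± 0.28), the stress ligand ULBP1 (2.89 ± 0.24), the neutral amino acid transporter SLC1A4 (1.04 ± 0.0943) and the cystathionine cleaving enzyme CTH (0.91 ± 0.13) were also called higher. Of the members not called, ATF5 stood at -0.19 ± 0.0883 and the arginine transporter SLC7A1 at 0.27 ± 0.0904 (adjusted p = 0.0581). PPP1R15A did not move (-0.06 ± 0.0637, adjusted p = 0.693), with means of 30.6 CPM in Coptidis Rhizoma and 31.8 CPM in Zizyphi Fructus. ALDH1L2 stood at 0.001 ± 0.312, with low means of 0.545 and 0.568 CPM.

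Aminoacyl-tRNA synthetases, which charge transfer RNAs with amino acids, rose as a part of the cytosolic set. Of 20 tested, 12 were called higher and 0 lower, against 3.63% and 2.57% of all genes, with a median of 0.26. GARS1, for glycine, had 269.6, 274 and 274 CPM in Coptidis Rhizoma and 179, 190.0 and 176 CPM in Zizyphi Fructus (0.59 ± 0.0368, adjusted p = 9.14e-18). AARS1, for alanine, had 202, 207 and 205 CPM in Coptidis Rhizoma and 135, 132 and 141 CPM in Zizyphi Fructus (0.59 ± 0.041, adjusted p = 4.68e-16). SARS1, CARS1, WARS1 and MARS1, for serine, cysteine, tryptophan and methionine, rose by 0.68, 0.63, 0.54 and 0.49. The 8 not called lay between -0.10 and 0.11, with VARS1, for valine, lowest. All 7 synthetase genes with a TGATGNAA match were among the 10 called higher that have a promoter in the table, and none of the 6 others with a promoter held one.

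AhR targets were the second group with large changes. CYP1A1, the cytochrome P450 most used as a readout of this receptor (chr15:74719542-74725610), had 12.6, 10.8 and 10.5 CPM in Coptidis Rhizoma and 0.396, 0.604 and 0.175 CPM in Zizyphi Fructus. It was under 1 CPM in every Zizyphi Fructus library, and its log2 change was 4.96 ± 0.21 (adjusted p = 1.35e-24). CYP1B1, a related P450, had 155, 153 and 154 CPM in Coptidis Rhizoma and 46.5, 52.7 and 45.97 CPM in Zizyphi Fructus, a log2 change of 1.68 ± 0.0836 (adjusted p = 9.79e-22). ALDH3A1, an aldehyde dehydrogenase, had 39.9, 45.6 and 43.3 CPM in Coptidis Rhizoma and 19.2, 20.6 and 20.5 CPM in Zizyphi Fructus, a log2 change of 1.10 ± 0.10. Of 8 targets tested, 6 were called higher and 0 lower, against 3.63% and 2.57% of all genes. The rest of the 6 were TIPARP, an ADP-ribosyltransferase that restrains the receptor (0.66 ± 0.0863), NQO1 (0.57 ± 0.0599) and UGT1A6 (0.31 ± 0.071). AHRR, the repressor of the receptor, was not called and had 4.05, 3.57 and 4.87 CPM in Coptidis Rhizoma and 5.22, 5.43 and 4.85 CPM in Zizyphi Fructus (-0.32 ± 0.12, adjusted p = 0.126). None of 5 genes for the receptor and its partners was called, with log2 changes between -0.19 and 0.17. The letters TNGCGTG, the core of the receptor's element, occurred in 5.77% of windows of genes called higher and 6.89% of windows of genes tested. Counted by gene, 3 of the 6 targets with a window held them (AHRR, NQO1 and UGT1A6), a share not directly comparable with those by window.

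NRF2 targets shifted by less and more evenly. Of 22 tested, 20 were called higher and 0 lower, against 3.63% and 2.57% of all genes, with a median of 0.38. Under other settings the count called higher ran from 16 to 20. SLC7A11, the cystine importer, had 283, 271 and 279.8 CPM in Coptidis Rhizoma and 152, 171 and 151 CPM in Zizyphi Fructus (0.82 ± 0.0707, adjusted p = 8.19e-13). NQO1, a quinone reductase, had 722, 762 and 733 CPM in Coptidis Rhizoma and 477, 519.9 and 493 CPM in Zizyphi Fructus (adjusted p = 3.34e-10). AKR1B10, an aldo-keto reductase, had 157, 163 and 158 CPM in Coptidis Rhizoma and 95.5, 111 and 102 CPM in Zizyphi Fructus (0.64 ± 0.0707). These groups did not overlap for any of the 3 genes. AKR1C2 and AKR1C1, of the same family, rose by 1.09 ± 0.12 and 0.91 ± 0.10, but near-identical paralogs share reads, so how the rise divides between them is uncertain. TXNRD1, thioredoxin reductase, rose by 0.38 ± 0.0508, and the subunits of glutamate-cysteine ligase, GCLC and GCLM, by 0.33 and 0.30. The members not called were TALDO1, a pentose phosphate enzyme (0.12 ± 0.0776), and the efflux pump gene ABCC2 (0.61 ± 0.30). The list shares NQO1 with the AhR list, and SLC7A11 is also a known ATF4 target.

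Iron and haem genes moved in both directions. Of 12 tested, 5 were called higher and 2 lower, against 3.63% and 2.57% of all genes. Among those called higher, HMOX1, FTH1 and FTL were already counted in the NRF2 list. HMOX1, haem oxygenase, had 11.2, 13.2 and 12.5 CPM in Coptidis Rhizoma and 8.71, 8.07 and 7.68 CPM in Zizyphi Fructus (0.58 ± 0.0868, adjusted p = 2.75e-06). ALAS1, the first enzyme of haem synthesis, had 64.8, 68.6 and 68.1 CPM in Coptidis Rhizoma and 45.5, 41.6 and 47.5 CPM in Zizyphi Fructus (0.58 ± 0.0526, adjusted p = 4.43e-12), and FECH, its last enzyme, rose by 0.37 ± 0.0668. The ferritin chains FTH1 and FTL rose by 0.51 ± 0.10 and 0.44 ± 0.10. The transferrin receptor TFRC fell by 0.30 (SE 0.0693, adjusted p = 0.00281) and the iron exporter SLC40A1 by 0.23 (SE 0.0598, adjusted p = 0.0124), and neither was called without Zizyphi Fructus medium replicate 2.

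TXNIP and ARRDC4, arrestin-like proteins that limit glucose uptake and are driven by the glucose-sensing MondoA and ChREBP factors, were the 2 nuclear genes among the 12 named for the largest falls. TXNIP had 22.9, 21.5 and 21.7 CPM in Coptidis Rhizoma and 62.7, 64.2 and 58.3 CPM in Zizyphi Fructus, a log2 change of -1.48 ± 0.0628 (adjusted p = 9e-25). ARRDC4 had 4.31, 4.65 and 5.41 CPM in Coptidis Rhizoma and 9.97, 12.2 and 9.43 CPM in Zizyphi Fructus, a log2 change of -1.13 ± 0.11 (adjusted p = 1.23e-10). In both genes every Coptidis Rhizoma library lay below every Zizyphi Fructus library, as the rule for naming the largest changes required. MLXIP, which codes for MondoA, was lower by a smaller amount (-0.28 ± 0.0629, adjusted p = 0.00202). The TXNIP promoter is printed because it was the 1 window of a gene called lower that held 2 copies of CACGNG with 5 bases between them, the carbohydrate response element, found in 0.06% of all windows and 0.1% of those of genes tested. Capitals mark the match, whose first letter lies 88 bases before the start. It does not overlap the TNGCGTG match in the same window.
TXNIP, chr1:145996530-145996829, minus strand (RefSeq, GRCh38.p14): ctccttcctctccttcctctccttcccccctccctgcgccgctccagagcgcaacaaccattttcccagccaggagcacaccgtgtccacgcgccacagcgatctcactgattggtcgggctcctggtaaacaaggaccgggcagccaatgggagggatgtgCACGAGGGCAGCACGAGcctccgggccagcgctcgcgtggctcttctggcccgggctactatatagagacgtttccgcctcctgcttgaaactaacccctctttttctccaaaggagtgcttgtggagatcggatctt
The direction turned with dose. TXNIP had 32.5, 33.3 and 31.2 CPM in low Coptidis Rhizoma and 61.7, 62.1 and 63.8 CPM in low Zizyphi Fructus (-0.95 ± 0.0592, adjusted p = 2.47e-17). At the high pair it had 155, 152 and 156 CPM in Coptidis Rhizoma and 61.4, 59.3 and 59.99 CPM in Zizyphi Fructus (1.36 ± 0.0566, adjusted p = 2.41e-26). ARRDC4 did the same, at -0.80 ± 0.11 in the low and 1.58 ± 0.0941 in the high pair, called in each. Glucose uptake and glycolysis genes gave few calls at the medium doses, where 3.63% of all genes were called higher. Of 21 tested, 2 were called higher, SLC16A3, a lactate exporter (0.29 ± 0.0668), and PFKP, a phosphofructokinase (0.23 ± 0.0499), and both calls were lost without Zizyphi Fructus medium replicate 2.

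Most genes of cholesterol synthesis were lower. Of 21 genes tested, 15 were called lower and 0 higher, against 2.57% and 3.63% of all genes, with a median of -0.26 over the 21. The 6 not called included PMVK, MVD, FDPS, FDFT1 and EBP. Between 13 and 18 were called lower under other settings. HMGCS1, which makes the precursor of mevalonate, had 193, 183 and 176 CPM in Coptidis Rhizoma and 278, 279 and 255 CPM in Zizyphi Fructus (-0.56 ± 0.0659, adjusted p = 1.02e-08). INSIG1, which holds the SREBP factors back in the endoplasmic reticulum (ER), had 142, 126 and 131 CPM in Coptidis Rhizoma and 189, 175 and 172 CPM in Zizyphi Fructus (-0.42 ± 0.0572). Neither gene overlapped between the groups. SQLE, IDI1 and SC5D, enzymes of later steps, stood at -0.36, -0.32 and -0.38, while the mRNA of the regulator SREBF2 was not called (-0.05 ± 0.0551). NPC1, which exports cholesterol from lysosomes, was called lower (-0.26 ± 0.0665) and lost its call in 4 of 15 other settings. ABCG1, a sterol exporter, went the other way, with 10.6, 10.5 and 11.2 CPM in Coptidis Rhizoma and 4.82, 3.77 and 5.06 CPM in Zizyphi Fructus (1.21 ± 0.11, adjusted p = 2.6e-12), while ABCA1 stood at -0.04 and was not called. Fatty acid synthesis gave 0 calls among 13 genes, with FASN at -0.15 ± 0.0897 and SCD at -0.20 ± 0.0722, and without the 4 libraries mentioned above 4 were called lower and 2 higher. At the high pair all 21 cholesterol synthesis genes were called lower, with a median of -0.99, where 28.2% of all genes were. Counted by gene, the core sterol element letters TCACNCCAC were found in 1 of 17 cholesterol synthesis genes with a window, SREBF2. Counted by window, they were found in 1.09% of the windows of genes tested, so the shares are not directly comparable.

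Some protein folding genes of the ER were lower by small amounts. Of 18 tested, 6 were called lower, 1 higher and 11 not, where 2.57% of all genes were called lower and 3.63% higher. Under other settings between 2 and 8 were called lower. HSP90B1, an ER chaperone of the HSP90 family, had 536, 538 and 521 CPM in Coptidis Rhizoma and 637, 685 and 634 CPM in Zizyphi Fructus (-0.30 ± 0.0433, adjusted p = 2.04e-06). HSPA5, the chaperone BiP, stood at -0.21 ± 0.0444 and CALR, calreticulin, at -0.25 ± 0.0621. HERPUD1, which works in ER-associated degradation, was the member called higher, with 47.8, 43.4 and 40.8 CPM in Coptidis Rhizoma and 35.4, 37.2 and 34.7 CPM in Zizyphi Fructus (0.31 ± 0.06, adjusted p = 0.000373). Of 15 cytosolic and mitochondrial heat shock genes, 2 were called lower, the co-chaperone CHORDC1 (-0.48 ± 0.0674) and HSPH1 (-0.16 ± 0.0461, lost in 7 of 15 other settings).

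Intestinal lineage genes that were called were mostly lower. Among 14 goblet and secretory cell genes, 5 were called lower and 0 higher, where 2.57% and 3.63% of all genes were. Under other settings 3 to 5 were called lower. FCGBP, a mucus protein, had 24.7, 24.1 and 22.2 CPM in Coptidis Rhizoma and 39.1, 31.5 and 33.8 CPM in Zizyphi Fructus (-0.56 ± 0.12, adjusted p = 0.00201). MUC13, a membrane mucin, had 114, 108 and 114 CPM in Coptidis Rhizoma and 149.9, 152 and 149.6 CPM in Zizyphi Fructus (-0.43 ± 0.0489, adjusted p = 4.37e-09). The others were AGR2, which folds mucins (-0.38 ± 0.0796), the gel-forming mucin MUC2 (-0.66 ± 0.20, lost in 7 of 15 other settings) and the lineage factor ATOH1 (-0.48 ± 0.14, lost in 5 of 15). Among 14 Wnt targets and stem cell genes, 5 were called lower and 0 higher, a count that ran from 2 to 7 under other settings. LGR5, a stem cell receptor for R-spondin, had 25.3, 28.4 and 27.9 CPM in Coptidis Rhizoma and 35.8, 35.6 and 35.7 CPM in Zizyphi Fructus (-0.39 ± 0.0605, adjusted p = 5.23e-06), and EPHB3, an ephrin receptor, stood at -0.48 ± 0.0836. CD44, an adhesion receptor, stood at -0.26 ± 0.0482. The claudins CLDN2 (-0.29 ± 0.0449) and CLDN1 (-0.23 ± 0.06) were the called members of 12 tight junction genes, both lower. Of 13 enterocyte genes tested, CEACAM1 was called lower (-0.21 ± 0.0561, lost in 5 of 15 other settings) and CEACAM7 higher, at low levels of 0.862, 0.99 and 0.772 CPM in Coptidis Rhizoma and 0.288, 0.528 and 0.131 CPM in Zizyphi Fructus. Among the epithelial markers only CDX2, an intestinal homeobox factor, was called, at 0.52 ± 0.12 (adjusted p = 0.00412), and not without Zizyphi Fructus medium replicate 3.

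Genes of growth factor signalling and cell death gave scattered calls, where 3.63% of all genes tested were called higher and 2.57% lower. EREG, an epidermal growth factor receptor ligand, had 126, 118 and 121 CPM in Coptidis Rhizoma and 78.5, 85.5 and 77.5 CPM in Zizyphi Fructus (0.60 ± 0.0621, adjusted p = 2.87e-10), and the related AREG stood at 0.49 ± 0.13 (adjusted p = 0.0145). They were 2 of 4 immediate-early and feedback genes called higher among 20, a count that ran from 1 to 7 under other settings. VEGFA, the angiogenic growth factor, had 118, 109.8 and 107 CPM in Coptidis Rhizoma and 72.98, 66.9 and 71.2 CPM in Zizyphi Fructus (0.67 ± 0.0503, adjusted p = 7.57e-15). It was the 1 gene called of 14 hypoxia genes outside glycolysis, where CA9, the carbonic anhydrase most used as a hypoxia marker, stood at 0.08 ± 0.12. ALDH1A3, which makes retinoic acid, had 40.2, 44.9 and 45.4 CPM in Coptidis Rhizoma and 16.3, 19.2 and 17.99 CPM in Zizyphi Fructus (1.295 ± 0.0754, adjusted p = 4.31e-19). Of 10 BCL2 family genes, 2 were called higher, 1 lower and 7 not. The higher ones were the BH3-only death genes BMF (0.83 ± 0.11) and PMAIP1 (0.53 ± 0.14, lost in 4 of 15 other settings), while BAD, BID, BIK and BCL2L11, of the same class, were not called. MCL1, which keeps cells alive, was lower (-0.15 ± 0.046, adjusted p = 0.0439) and lost its call in 12 of 15 other settings. Of 15 p53 targets, BBC3, a further BH3-only gene, was the 1 called higher (0.65 ± 0.13), and BTG2, an antiproliferative gene (-0.57 ± 0.10), and SESN1 (-0.33 ± 0.0678) were called lower. Of 9 polyamine genes, 2 were called lower, 1 higher and 6 not. The lower ones were AMD1, which makes the aminopropyl donor (-0.33 ± 0.0538), and AZIN1, which shields ornithine decarboxylase from its antizyme (-0.21, adjusted p = 0.001). The higher one was the spermine oxidase gene SMOX (0.36 ± 0.11, lost in 6 of 15 other settings). Of 21 lysosome and autophagy genes, 5 were called higher, among them the master factor TFEB (0.45 ± 0.11) and the cargo receptor SQSTM1 (0.24 ± 0.0583), and none kept its call in the fit of set 4 with the replicate number as a block.

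Other called members of the lists were single genes, where 3.63% of all genes tested were called higher and 2.57% lower. Of 10 tested genes for drug efflux, glucuronidation and drug oxidation, 3 were called higher, 1 lower and 6 not. Among them UGT1A10, a glucuronosyltransferase, rose by 0.22 ± 0.051 and ABCC3, an efflux pump, by 0.35 ± 0.0518. UGT1A6 and UGT1A10 share exons, so reads can be split between them. UGT1A6 was already counted in the AhR list and ABCC3 in the NRF2 list. PLIN2, a lipid droplet coat protein, rose by 0.44 ± 0.10. NR1H3, the liver X receptor alpha, stood at 0.32 ± 0.0797 and lost its call in 3 of 15 other settings. TNFAIP2, a gene induced by tumour necrosis factor (0.26 ± 0.0466) and CXCL8, a neutrophil chemokine (-0.53 ± 0.16, lost in 5 of 15 other settings), were the called members of 18 NF-kB targets. CENPE, a mitotic kinesin, stood at -0.27 ± 0.0695, was the 1 called of 22 mitosis genes and lost its call in 5 of 15 other settings.

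Several programmes gave no call at the medium doses. Among 25 interferon response genes, 24 DNA replication genes, 12 MHC class I genes and 21 MYC and ribosome biogenesis genes the count was 0 in each by edgeR, and at most 3 in any direction under the other settings, DESeq2 among them. At the high pair 25 of the 25 interferon genes and 11 of the 12 MHC class I genes were called higher, where 26.8% of all genes tested were, and 24 of the 24 replication genes lower, where 28.2% of all genes were. Of 7 metallothionein and zinc genes 0 were called, and 1 without the 4 libraries of high ribosomal protein share. All 24 cytosolic ribosomal protein genes lay above 0, with a median of 0.18, and 0 were called. Ribosomal protein genes took 5.45%, 5.71% and 5.23% of counts in Coptidis Rhizoma and 5.07%, 4.95% and 5.30% in Zizyphi Fructus, so the groups overlap, and 13 were called higher in a fit of the 6 libraries alone.

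**Figure D3:**
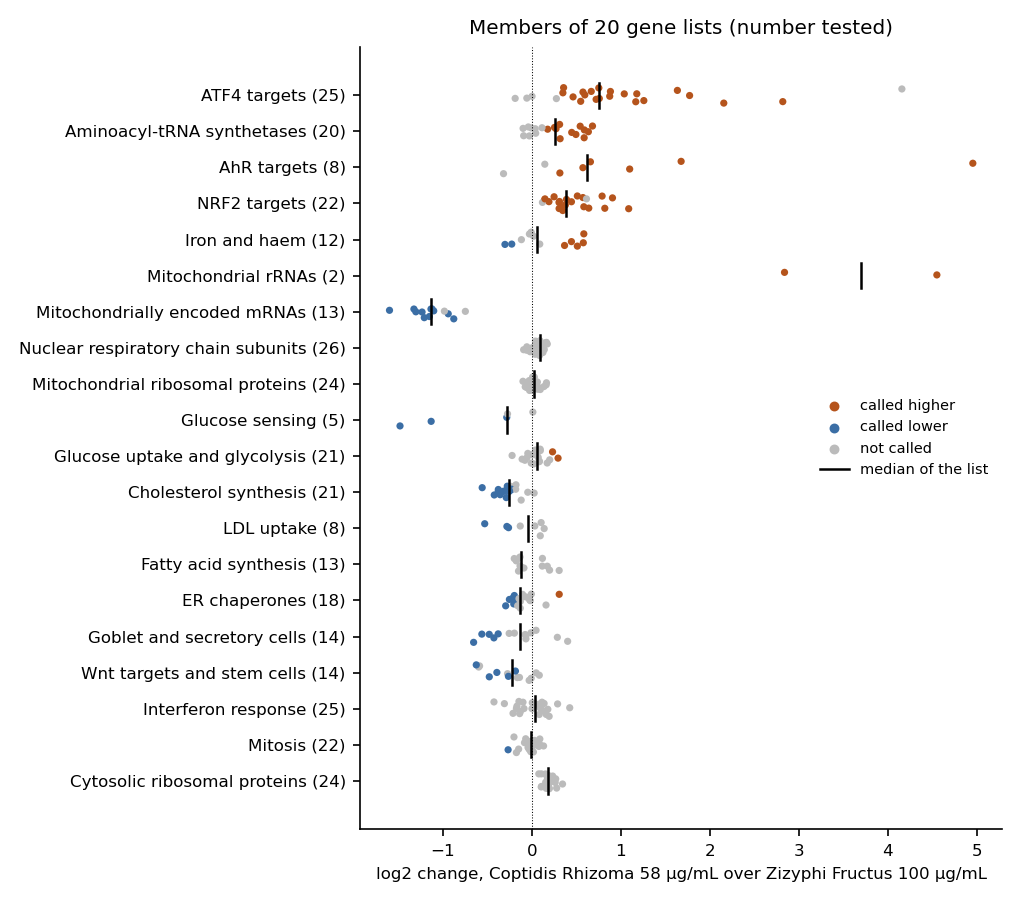
Fitted log2 change of Coptidis Rhizoma 58 µg/mL over Zizyphi Fructus 100 µg/mL (x) for each tested member of 20 gene lists (rows, number tested in brackets); a black line marks the median of a list. ATF4 targets (median 0.75) and NRF2 targets (0.38) lie to the right, mitochondrially encoded mRNAs (-1.13) and cholesterol synthesis (-0.26) to the left, and nuclear respiratory chain subunits around 0. FGF21, the grey ATF4 target at the far right, has no count in the Zizyphi Fructus medium libraries.

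**Figure D4:**
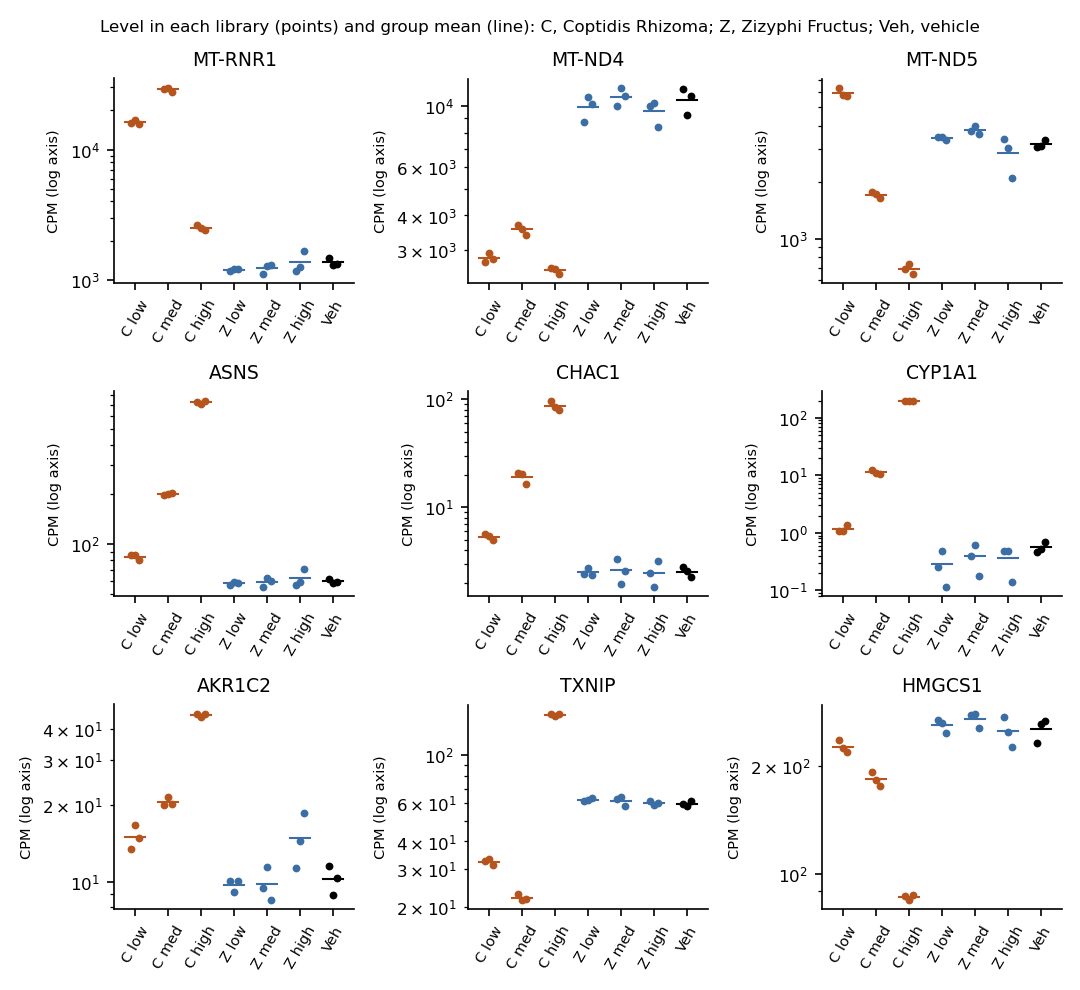
CPM on log axes (y) of 9 genes in each library (points) with the group mean (line), for Coptidis Rhizoma and Zizyphi Fructus at low, medium and high dose and for vehicle (x). Across the doses of Coptidis Rhizoma the means of ASNS, CHAC1 and CYP1A1 climb and that of HMGCS1 declines, MT-RNR1 is highest at the medium dose, and TXNIP is lowest at the medium and highest at the high dose.

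Set against the other dose pairs, which share no library with the medium pair, the medium pair lay between a weak and a broad difference. At the low pair 40 genes were called (0.241%), 27 higher (0.163%) and 13 lower (0.0783%), and at the high pair 9124 (54.9%), 4448 higher (26.8%) and 4676 lower (28.2%). Of the 603 genes called higher at the medium dose, 24 were also called higher at the low dose, which is 3.98% of the medium calls and 88.9% of the low calls. At the high dose 490 of the 603 were called higher, 81.3% of the medium and 11% of the high calls. Of the 427 called lower, 11 were called lower at the low dose (2.58% of the medium and 84.6% of the low calls) and 337 at the high dose (78.9% of the medium and 7.21% of the high calls). In sign alone, 92.5% of the genes called higher were above 0 at the low dose and 91.4% at the high dose, where 50.6% and 48.1% of all genes tested were. The median log2 change of these 603 genes was 0.11, 0.36 and 0.65 at the low, medium and high pair, and that of the 427 lower genes -0.09, -0.31 and -0.60.

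Some genes called at the medium dose were called the other way at another. At the low pair these were MT-ND5 and MT-ND2. At the high pair 30 of the genes called higher were called lower and 27 of those called lower were called higher. Named after their values were seen, the 27 held TXNIP, ARRDC4, the nuclear receptor RORA (-0.82 at medium, 0.94 at high dose), the epidermal gene SCEL (-0.42 and 1.17) and the homeobox factor PROX1 (-0.45 and 0.67). The 30 held ACTG1, cytoplasmic gamma actin (0.20 at medium, -0.33 at high dose), the surface antigen PSCA (0.42 and -1.24) and the protein C receptor PROCR (0.28 and -0.43).

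**Figure D5:**
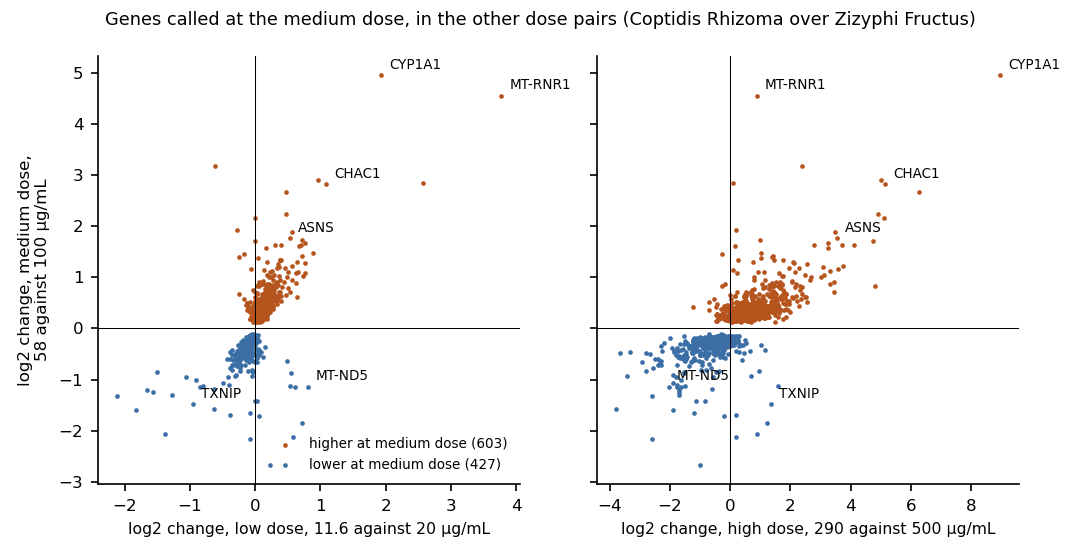
Each point is a gene called at the medium dose pair (603 higher, 427 lower), with its log2 change of Coptidis Rhizoma over Zizyphi Fructus there (y) against that at the low (left) or high (right) dose pair (x; the x axes differ in range). Most points keep their sign, and TXNIP lies left of 0 at the low and right of 0 at the high dose, while MT-ND5 lies right of 0 at the low and left of 0 at the high dose.

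A test of the difference of differences, medium minus low, called 76 genes (0.458%), of which 61 (0.367%) had a more positive and 15 (0.0903%) a more negative change at the medium dose. With no filter on low counts it called 151. ATF4 targets supplied 14 of their 25 tested members and tRNA synthetases 7 of 20. For ASNS the log2 change was larger at the medium dose by 1.24 ± 0.0841 (adjusted p = 2.34e-15), with levels of 85.9, 85.6 and 79.8 CPM in low Coptidis Rhizoma and 56.5, 59.02 and 58.3 CPM in low Zizyphi Fructus. CYP1A1 was larger by 3.02 ± 0.51 (adjusted p = 0.000214) and CYP1B1 by 0.91 ± 0.12 (adjusted p = 7.82e-07). ALDH3A1 and AKR1B10 were called at both doses and showed no difference past the test (adjusted p = 0.226 and 0.642), and at the high pair AKR1B10 was no longer called (0.15 ± 0.0694). Of the NRF2 list only SLC7A11 was called in this test (0.54 ± 0.10), and of the cholesterol synthesis list only SQLE (-0.22 ± 0.0545).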

How the data were processed

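RNA of HT29 cells was sequenced with a directional mRNA library kit and paired reads of 100 bp, per the labels' protocols. The authors deposited RSEM (1.3.3) expected counts of each gene. The submitters' processing notes also name STAR 2.7.3a, Trim Galore 0.6.5 and FastQC 0.11.9, with GRCh38 as the build. The annotation release and the use of strand in counting are not given in the sources used here. Of the values 8.75% were not whole, and they were rounded. Another 210 columns of the table belong to other samples and were not used. The 60 libraries held 11.1 to 34.4 M counts (median 23.4 M). Gene positions are those of GENCODE release 29, and 56558 of 60675 genes had a symbol.

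The fit took all 60 libraries (edgeR 4.0.16, R 4.3.3): TMM scaling, filterByExpr (16608 genes left), 1 coefficient per group, robust quasi-likelihood tests with 40 residual degrees of freedom and Benjamini-Hochberg adjustment per comparison. The SE is the absolute log2 change divided by the square root of the F statistic. Alternatives were DESeq2 1.42.0 (size factors, Wald test), no filter, fewer libraries, a replicate block, each library left out, and, added after seeing the data, 4 libraries or the mitochondrial genes left out. Named genes were those called with 5 CPM or more in the higher group and no overlap (the 12 largest changes in each direction), or were the up to 3 called members of a list with the smallest p. Other list members were named after their values were seen, and a few genes that met the rule are not reported here. Samples, gene lists and tests were chosen with earlier results of these data known. Chi-square per gene between libraries of the same group was 2.87 to 5.41, so none was a copy. Between the medium groups, samples with the same replicate number did not deviate together (correlations 0.023, -0.023 and -0.071). At the low pair same-number correlations were small but positive (0.078, 0.052 and 0.066), and the others lay between -0.054 and -0.011. Zizyphi Fructus medium against low gave 0.125, 0.061 and 0.049 for the same numbers, and -0.073 to 0.011 for the others. The high pair gave -0.247, 0.006 and -0.194 for the same numbers. The main fit used no replicate block. The fit was also run on counts simulated with known changes and the same spread for all genes. The outcome of that run is not reported here.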

Additional observations from a re-analysis of the deposited data

Results flagged for a closer look

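The difference between the extracts was tested for a change between the medium and the low dose pair, in the same fit, and 76 genes passed that test. Below are the log2 differences, medium minus low, of the genes named above among them. No explanation was tested for any of them.

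Of the ATF4 and amino acid genes, the value was 2.18 for SLC6A9, 1.93 for ULBP1, 1.75 for ADM2, 1.73 for CHAC1, 1.24 for ASNS, 1.24 for DDIT4, 1.22 for ATF3, 0.92 for JDP2, 0.90 for PSAT1, 0.86 for SLC1A4, 0.86 for CTH, 0.85 for PCK2, 0.76 for SESN2, 0.74 for TRIB3, 0.56 for PHGDH, 0.54 for SLC7A11, 0.52 for SLC7A5, 0.48 for MTHFD2, 0.47 for GPT2, 0.43 for SLC3A2, 0.39 for ATF4 and 0.32 for SHMT2. Of the tRNA synthetases it was 0.52 for SARS1, 0.48 for CARS1, 0.41 for GARS1, 0.40 for AARS1, 0.38 for WARS1 and 0.35 for MARS1. These genes all stood higher relative to Zizyphi Fructus at the medium than at the low dose. ATF3 was not above Zizyphi Fructus at the low dose (log2 change -0.06).

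Among AhR targets it was 3.02 for CYP1A1 and 0.91 for CYP1B1. Single genes that were further above Zizyphi Fructus at the medium dose were ABCG1 (0.84), ALDH1A3 (0.65), VEGFA (0.53) and ALAS1 (0.40). Those further below were TXNIP (-0.53), CHORDC1 (-0.42), MUC13 (-0.31) and SQLE (-0.22).

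Of the mitochondrial transcripts it was 0.79 for MT-RNR1, -1.94 for MT-ND5, -1.89 for MT-ND6, -1.65 for MT-ND2, -1.43 for MT-ND1 and -0.70 for MT-CYB. The genes with the most negative values code for complex I subunits, of which MT-ND3, MT-ND4 and MT-ND4L were not called in this test.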

How the results depend on the processing

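For the medium doses, 1030 genes were called, and 1023 with DESeq2 size factors, 1071 by the DESeq2 Wald test, 1061 with no filter on low counts and 1010 without mitochondrially encoded genes. The count was 568 in set 4 alone, 1565 in the compared libraries alone, 1877 without the 4 libraries of high ribosomal protein share, and 581 to 864 with a library of either group left out. With the replicate number as a block, it was 1060 over all 60 libraries and 492 in set 4. Samples with the same number did not deviate together between the medium groups. Of 124 named genes called, 91 kept their call under each setting run and none turned round. Most of the others were weak calls, led by MCL1 (lost in 12 of 15 settings) and POLG (11 of 15). Leaving out Zizyphi Fructus medium replicate 2 or Coptidis Rhizoma medium replicate 2 lost 16 named calls each.

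The low pair, with 40 calls, gave 144 with no filter, 82 in the compared libraries, 65 without the 4 libraries, 25 without mitochondrially encoded genes and 24 to 34 with a library left out. The high pair, with 9124, gave 5666 in the compared libraries. Zizyphi Fructus medium against low, with 0, gave 63 with no filter and 1 by DESeq2. Against vehicle, also 0, it gave 1472 with no filter, 145 by DESeq2, 2 in the compared libraries, 2 without the 4 libraries, 1 with the replicate block over all 60 libraries and 0 to 4 with a library left out. The medium minus low test, with 76, gave 151 with no filter, 119 in the compared libraries, 126 without the 4 libraries, 49 in set 4 and 43 there with the replicate block. Why these counts moved was not tested.

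Precision is limited by 3 libraries a group, the shallowest with 13.2 M counts, by doses that differ in mass, and by an annotation release that is not given in the sources used here.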
